A study of Homo sapiens with 12 samples.

Results

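The 8 genes described here, CASP8, CASP10, CFLAR, FADD, FAS, TNFRSF10A, TNFRSF10B and TNFRSF10D, encode the receptors, adaptor, initiator caspases and inhibitor of the extrinsic death pathway, and they are 8 of the 49677 genes in the deposited table. They were chosen by gene symbol with earlier results of this comparison known. The values that chose them were the counts of the inactivated libraries against the control libraries, with CASP8 near absent in control cells. The levels and fold changes of these 8 genes are therefore a description and carry no test. All 8 were found in the table, and 6 had enough reads to enter the fit across all genes, in which CASP8 and TNFRSF10A passed the filter on low counts only through the inactivated libraries. CASP10 and TNFRSF10D did not pass it.

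RNA enriched for mRNA was sequenced from D283 cells, an established medulloblastoma line with amplified MYC. One group was a scrambled control. In the other group the related tyrosine kinase genes ABL1 and ABL2 were both inactivated, and the labels put this question to medulloblastoma in general terms, as the role of ABL kinases. Each group had 3 libraries, each sequenced on 2 lanes that were summed. All cells shared the line and one culture recipe in the labels. The sources used here do not give the method of inactivation, the time after it, or whether the cells were 1 clone or a pool. Nothing in the labels says that replicate libraries are separate cultures. Intervals and p-values therefore cover the spread among these libraries alone, which may be technical. In bulk RNA, more cells expressing a gene and more RNA per cell cannot be told apart.

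The libraries held 33505903 to 49034159 counts. ABL1 fell from 153 ± 4.82 to 61.9 ± 0.625 CPM (counts per unit of library size, scaled by TMM, given as mean ± SD with n = 3 libraries a group throughout), and ABL2 from 138 ± 5.58 to 104 ± 7.60 CPM, in the direction of the labels. Markers of Group 3 medulloblastoma summed to 2359 to 2386 CPM in control and 2644 to 2744 CPM in inactivated libraries, with 6 of 7 present in both groups and NRL listed at 0. Among them OTX2 fell from 830 ± 16.1 to 666 ± 11.4 CPM, while the other 5 tested rose. IMPG2 rose most, from 66.7 ± 3.63 to 316 ± 18.4 CPM. Of the neural progenitor markers, NES, SOX11 and PROM1 were present and SOX2 was at 0. NES rose from 138 ± 4.69 to 339 ± 0.159 CPM, PROM1 fell from 251 ± 9.14 to 204 ± 3.96 CPM, and SOX11 did not pass. Immune markers summed to at most 0.452 CPM in any library and astrocyte markers to at most 0.222 CPM. Fibroblast markers summed to 42.7 to 46.2 CPM in control and 33.4 to 36.9 CPM in inactivated libraries, with COL3A1 listed at 0. Within that list COL1A1 rose from 8.11 ± 0.583 to 15.1 ± 1.04 CPM, while PDGFRB and DCN fell. Endothelial markers summed to 4.12 to 4.46 and 9.66 to 11.0 CPM, with CDH5 at no more than 1 count. KDR rose from 2.22 ± 0.342 to 8.41 ± 0.690 CPM, while VWF had 2.01 ± 0.255 and 1.86 ± 0.0166 CPM and did not pass. PECAM1 had at most 4 reads in any library. Epithelial markers summed to 18.1 to 20.3 CPM in control and 235 to 275 CPM in inactivated libraries. KRT8 carried most of that sum, with 18.6 ± 1.21 CPM in control and 252 ± 20.1 CPM in inactivated libraries. KRT18 had 0.280 ± 0.0263 and 3.76 ± 0.0614 CPM. KRT5 went the other way, with 21, 15 and 8 reads in control and 2, 2 and 6 reads in inactivated libraries. KRT14 had at most 5 counts in any library, and EPCAM and CDH1 had at most 3. The part of these markers in the results below was not tested.

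In the extrinsic pathway, ligands of the tumour necrosis factor family such as TRAIL and FAS ligand bind receptors that carry a death domain inside the cell. The receptors gather the adaptor FADD, which recruits the initiator caspases CASP8 and CASP10 through death effector domains. CFLAR resembles these caspases without a working active site and competes for the same complex. Active CASP8 cleaves executioner caspases and BID, which links the pathway to mitochondria. CASP8 is often silenced in medulloblastoma and neuroblastoma, and DNA methylation near the gene has been described in such tumours.

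The sequences before the starts of CASP8 and FADD are shown. CASP8 had next to no reads in control cells, and FADD lies downstream of the same receptors and was read in every library. The 300-base windows around starts in RefSeq (GRCh38.p14) were examined for 4 of the 8 members, CASP8, CFLAR, FADD and FAS. Those of the TRAIL receptors and CASP10 were not examined. CASP8 was therefore not compared here with the TRAIL receptors that were also near absent in control cells. The most upstream of the 3 CASP8 windows held 6 CpG dinucleotides, and the others 5 and 6. The FADD window held 36. Among 35116 such windows of all genes the median was 14, 36.8% held 6 or fewer, and 88.7% held 36 or fewer. The 3 FAS windows held 14 to 22 CpGs. The CFLAR windows differed more among themselves, from 0 to 22. The runs below are the 250 bases before the start on the forward strand, CASP8 at chr2:201233213-201233462 and FADD at chr11:70203046-70203295, with each CpG in capitals. The CASP8 start used was base 201233463, while the gene as counted begins at 201233443. The last bases of the CASP8 run therefore lie inside the gene as counted.
CASP8: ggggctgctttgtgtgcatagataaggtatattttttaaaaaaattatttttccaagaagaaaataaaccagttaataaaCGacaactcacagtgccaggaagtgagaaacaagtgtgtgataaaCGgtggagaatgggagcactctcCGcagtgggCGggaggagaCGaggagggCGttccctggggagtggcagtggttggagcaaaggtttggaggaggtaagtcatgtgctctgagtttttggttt
FADD: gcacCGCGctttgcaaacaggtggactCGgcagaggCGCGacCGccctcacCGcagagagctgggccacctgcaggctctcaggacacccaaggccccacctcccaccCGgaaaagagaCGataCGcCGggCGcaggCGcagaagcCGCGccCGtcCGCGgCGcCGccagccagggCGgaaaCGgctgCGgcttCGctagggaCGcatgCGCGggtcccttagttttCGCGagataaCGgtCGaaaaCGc
In the CASP8 run there is no CpG in the AT-rich start, and 4 of the 6 lie close together in a later GC-rich stretch. In the FADD run they are packed along most of the length. These data hold no measure of methylation.

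The same 11 windows were searched on both strands for 2 interferon motifs, TTCNNNGAA, the letters of a gamma interferon activation site, and GAAA, any 2 bases and GAAA again, the core of an interferon response element. Of these 11, only the most upstream CASP8 window held either, and it held both, with no overlap between them. The TRAIL receptors and CASP10 were not searched. The first match covered bases -200 to -192 before the start, and the second, on the other strand, bases -3 to 7, counted from 1 at the start. The first motif occurred in 7.66% of all windows and the second in 3.57%. The CASP8 run is repeated with the matched letters in capitals, of which the second match shows only its first bases.
CASP8: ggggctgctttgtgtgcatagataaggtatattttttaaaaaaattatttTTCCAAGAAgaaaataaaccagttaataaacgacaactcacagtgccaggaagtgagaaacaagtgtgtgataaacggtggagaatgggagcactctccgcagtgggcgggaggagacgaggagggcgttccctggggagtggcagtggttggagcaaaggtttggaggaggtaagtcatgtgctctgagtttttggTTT
A match describes the letters of this window and is not a measured binding site.

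CASP8, the initiator caspase of the pathway, was at the edge of detection in control cells and at a low but plain level in inactivated cells. It had 3, 3 and 4 reads in the control libraries and 171, 264 and 157 reads in the inactivated ones. As normalised levels these were 0.0844, 0.0864 and 0.120 CPM against 4.68, 5.32 and 4.59 CPM. The groups lay far apart, and the control values were at or just above the floor of 3 reads. The group means were 0.0971 ± 0.0202 and 4.86 ± 0.400 CPM. The ratio of summed counts, scaled by library size, was 50.9, with an exact 95% interval of 27.5 to 107 that covers counting error only. In the fit the log2 fold change was 5.61 ± 0.24 (± SE for this quantity throughout), and its 95% interval, which includes the spread between libraries, ran from 5.11 to 6.11. Of the 14704 genes in the fit, 23 had a larger fitted log2 fold change, while the median of all genes was 0.0031. In the fit, 102 other genes had a control mean no higher than that of CASP8, and 2 of these reached its mean in inactivated cells. They were MPZL2 and HOXC11, the latter named after its values were seen, and both are among the 23. Genes this low in control passed the filter mainly through the inactivated libraries, and both cut-offs are values of CASP8 itself. Nothing is therefore read from this count. The same holds for the rank of the CASP8 fold change, since the gene was chosen on this contrast and had few control reads. Read lane by lane, the control libraries gave 1 to 3 CASP8 reads and the inactivated ones 72 to 145. On chromosome 2, CASP8 spans 201233443 to 201287711 (forward strand, GRCh38.p14), and its exons share no base with another gene of the table.

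CASP10, the neighbour and closest relative of CASP8 among the initiator caspases, stayed near the floor in both groups. It had 10, 7 and 7 reads in the control libraries and 7, 5 and 5 in the inactivated ones, or 0.281, 0.202 and 0.211 CPM against 0.191, 0.101 and 0.146 CPM. The CPM ranges did not overlap, with control above inactivated, while the read counts met at 7. The ratio of its summed counts was 0.609 with a 95% counting interval of 0.307 to 1.18, so a moderate fall and no difference cannot be told apart at this depth. In control cells CASP8 had fewer reads than CASP10 in every library, and in inactivated cells more in every library. CASP8 counts per length were 27.7%, 39.5% and 52.7% of those of CASP10 in control libraries and 2253%, 4870% and 2896% in inactivated ones.

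CFLAR, the inhibitor that competes with both caspases, was well expressed and similar in the groups. It had 54.2, 55.6 and 54.2 CPM in control and 54.8, 60.8 and 54.0 CPM in inactivated libraries. The groups overlapped, and the inactivated library with 60.8 CPM was the highest of all. The fitted log2 fold change was 0.05 ± 0.05 (interval -0.06 to 0.16). Per length, CASP8 was 0.669%, 0.668% and 0.954% of CFLAR in control libraries and 36.7%, 37.6% and 36.5% in inactivated ones, far apart between the groups. The size of this percentage rests on the summed exon lengths in the table, 30775 bases for CFLAR and 7163 for CASP8, which add up the exons of all annotated transcripts. As plain counts it was 0.156%, 0.156% and 0.222% in control and 8.54%, 8.76% and 8.49% in inactivated libraries.

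FADD, the adaptor between receptor and caspase, did not separate the groups. It had 28.4, 28.1 and 29.2 CPM in control and 29.6, 27.3 and 27.9 CPM in inactivated libraries, and these ranges overlapped. The fitted log2 fold change was -0.02 ± 0.05 (interval -0.13 to 0.10). FADD is a short gene of 1708 exon bases on chromosome 11, at 70203296 to 70207390, and per length it had the highest level of the 8 genes in both groups. In CPM, with no length, it came after CFLAR and TNFRSF10B in both groups. CASP8 per length was 0.0808 ± 0.0152% of FADD in control and 4.11 ± 0.468% in inactivated libraries.

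The plot of levels by library shows CASP8 and TNFRSF10A far apart between the groups on a log axis, and the others close together.

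**Figure D1:**
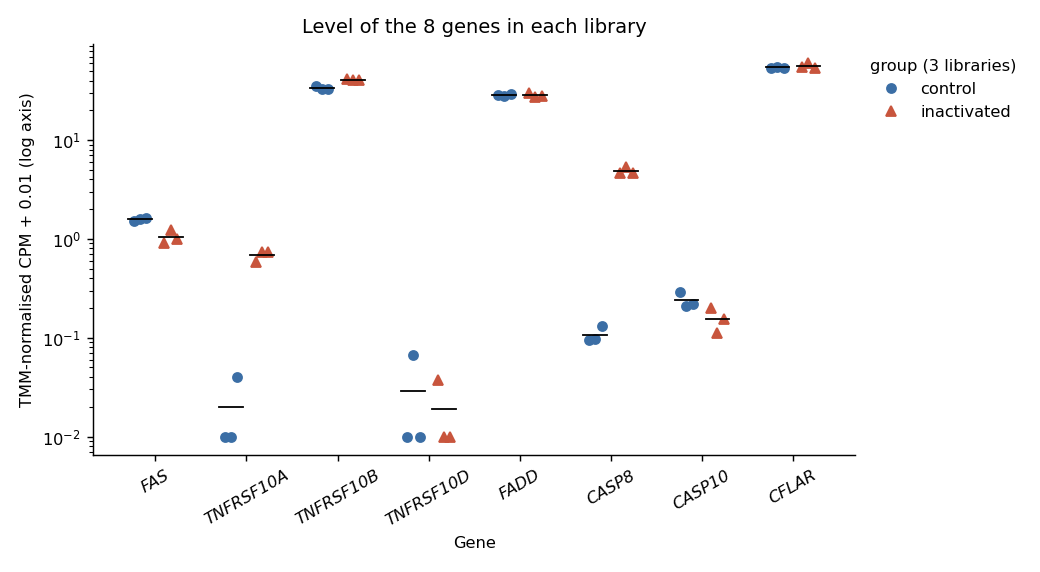
Level of each gene in TMM-normalised CPM plus 0.01 on a log axis, with control libraries as circles, inactivated libraries as triangles and group means as lines (3 libraries per group). CASP8 lies between 0.0844 and 0.120 CPM in control and between 4.59 and 5.32 CPM in inactivated libraries, while FADD and CFLAR overlap; points at the bottom are libraries with 0 reads.

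Among the receptors, TNFRSF10B and TNFRSF10A bind TRAIL and carry a death domain. TNFRSF10B was the main one in both groups, with 35.6, 33.1 and 33.1 CPM in control and 41.6, 40.4 and 41.0 CPM in inactivated libraries. All inactivated libraries were above all control libraries, by a small margin. The fitted log2 fold change was 0.27 ± 0.05, which is 1.21-fold with an interval of 1.12 to 1.30. TNFRSF10A had 0, 0 and 1 read in the control libraries and 21, 36 and 25 reads in the inactivated ones, or 0, 0 and 0.0301 CPM against 0.574, 0.726 and 0.731 CPM. Its ratio of summed counts was 70.5, with a 95% counting interval of 12.3 to 2817, so a single control read leaves the size of the difference poorly known. Even in inactivated libraries TNFRSF10A was a small share of the TRAIL receptor RNA, at 2.05%, 2.67% and 2.65% of TNFRSF10B per length, or 1.65 ± 0.236% as plain counts.

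TNFRSF10D, a decoy that binds TRAIL with a truncated death domain, was not measurably expressed. It had 0, 2 and 0 reads in control and 1, 0 and 0 reads in inactivated libraries, all at or under the floor of 3 reads. TNFRSF10C, the decoy receptor beside it that lacks a death domain and is not one of the 8 genes, had at most 1 read in any library. At this depth no difference in either decoy could be seen.

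FAS, the receptor of FAS ligand, was low in control cells and lower in inactivated cells. It had 1.49, 1.58 and 1.63 CPM in control and 0.902, 1.21 and 0.994 CPM in inactivated libraries. The ranges did not overlap, and they rest on 33 to 60 reads per library. Its fitted log2 fold change was -0.58 ± 0.20 (interval -0.99 to -0.17). The exons of FAS share 2.19% of their bases with genes on the opposite strand, ACTA2 and FAS-AS1, and the sources used here do not say whether counting used strand. ACTA2, a smooth muscle actin gene, rose from 51.9 ± 1.38 to 88.3 ± 5.95 CPM. FAS was thus lower in inactivated cells, where both TRAIL receptors with a death domain were higher.

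Of the 6 members in the fit, the libraries of the groups did not overlap for 3 that were higher in inactivated cells (CASP8, TNFRSF10A and TNFRSF10B) and for 1 that was lower (FAS). Among all genes tested, 31.4% were separated in this way with inactivated higher and 31.9% with inactivated lower. Since the members were chosen on this contrast, nothing is read from the count.

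Levels of different genes can be compared per length, as TPM (counts divided by length, scaled to one total in each library), computed from the counts and the exon lengths in the table. In control cells the order was FADD (46.2 ± 0.493 TPM), TNFRSF10B (23.4 ± 1.00 TPM), CFLAR (4.91 ± 0.123 TPM), FAS (0.263 ± 0.0116 TPM), CASP10 (0.0966 ± 0.0180 TPM) and CASP8 (0.0374 ± 0.00746 TPM), followed by TNFRSF10D and TNFRSF10A, whose mean was below the floor of 3 reads. Ranges of neighbours in this order did not overlap down to CASP8, and the last pair cannot be ordered. In inactivated cells CASP8 (1.94 ± 0.183 TPM) came next after CFLAR (5.25 ± 0.406 TPM), and TNFRSF10A (0.719 ± 0.0979 TPM) and FAS (0.180 ± 0.0296 TPM) followed. In terms of rank, 30.8% of the 19692 protein-coding genes had a lower mean TPM than CASP8 in control cells and 49.3% in inactivated cells. The length used adds up the exons of all annotated transcripts, 16436 bases for FAS against 2690 for TNFRSF10A, which lowers the level of a gene with many transcripts. Without length the order of this pair turned in inactivated cells, with 1.04 ± 0.158 CPM for FAS and 0.677 ± 0.0890 CPM for TNFRSF10A, so the 2 are not ranked here. FADD, TNFRSF10B and CFLAR also came in the reverse order without length, in both groups. In control cells CFLAR had 54.7 ± 0.774 CPM, TNFRSF10B 33.9 ± 1.48 CPM and FADD 28.6 ± 0.573 CPM. Their order per length therefore rests on the lengths used.

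CFLAR, CASP10 and CASP8 lie side by side on chromosome 2, and TNFRSF10B, TNFRSF10D and TNFRSF10A lie near each other on chromosome 8, with TNFRSF10C between the first pair. The genes around them are given beside them, and whether any difference extended along the chromosome was not tested. Among the 10 tested genes nearest the CASP8 cluster, 5 on either side, 5 were called higher, 1 lower and 4 neither, by edgeR's quasi-likelihood test with Benjamini-Hochberg adjustment over all 14704 genes at a threshold of 0.05. Over all genes, 29.6% rose and 29.7% fell. The median log2 fold change of these neighbours was 0.23, and the range was -0.25 to 0.96. CFLAR, within the same cluster, had a log2 fold change of 0.05, against 5.61 for CASP8. FLACC1, the next tested gene on the other side, had 0.445 ± 0.0202 and 0.665 ± 0.285 CPM (log2 fold change 0.62 ± 0.33, adjusted p 0.114, or 0.0183 without inactivated replicate 3). TRAK2, a mitochondrial transport adaptor, rose from 107 ± 0.657 to 198 ± 6.52 CPM (log2 fold change 0.89 ± 0.04, adjusted p 1.0e-12). ORC2, of the origin recognition complex, rose from 81.4 ± 4.74 to 103 ± 2.04 CPM and TMEM237, a ciliary gene, from 37.9 ± 0.327 to 52.9 ± 1.23 CPM. NDUFB3 and the noncoding LOC124906113 rose with adjusted p of 0.0332 and 0.0283. NDUFB3 no longer passed when any 1 of control replicates 1 (0.0960) and 2 (0.119) or of inactivated replicates 1 (0.0893) and 3 (0.121) was left out. That of LOC124906113 was lost without any 1 of control replicates 1 and 3 and inactivated replicates 2 and 3, with adjusted p up to 0.113. PPIL3 fell (log2 fold change -0.25), and NIF3L1, FAM126B and STRADB did not pass. FAM126B passed without control replicate 1 (adjusted p 0.0276) or inactivated replicate 1 (0.0321).

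Around the TNFRSF10 genes, 5 of 10 neighbours were called higher, 1 lower and 4 neither, beside 29.6% higher and 29.7% lower over all genes. Their median log2 fold change was 0.22. CHMP7, which starts 18.5 kb from TNFRSF10A, had 49.2 ± 1.46 and 45.9 ± 1.15 CPM (log2 fold change -0.10 ± 0.05, adjusted p 0.0807), against 1 control read and 82 inactivated reads for TNFRSF10A. On the far side RHOBTB2, whose exons share 67 bases with TNFRSF10B on the opposite strand, rose by a log2 fold change of 0.24, near the 0.27 of TNFRSF10B. PDLIM2 had the highest log2 fold change of these neighbours, 1.45 ± 0.27, and CCAR2, a regulator of the p53 deacetylase SIRT1, rose from 79.5 ± 2.57 to 149 ± 3.51 CPM. C8orf58 and ENTPD4 also rose, though C8orf58 did not pass in lane 2 alone (log2 fold change 0.41, adjusted p 0.118). LOXL2, a lysyl oxidase of the extracellular matrix, fell from 10.9 ± 0.441 to 4.75 ± 0.379 CPM. BIN3, R3HCC1 and the LOC124901909 gene did not pass, though R3HCC1 did without inactivated replicate 1 (adjusted p 0.0287). The plot of neighbours sets these against the members.

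**Figure D2:**
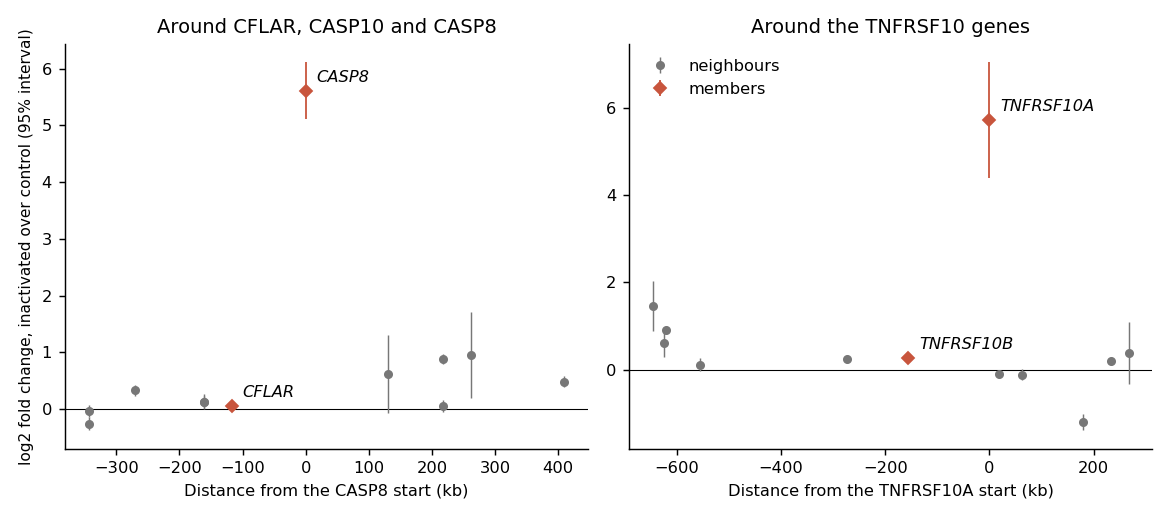
Log2 fold change (inactivated over control, with 95% intervals from the fit over 6 libraries) against the distance between transcript starts in kb, for tested neighbours (grey circles) and tested members (red diamonds). CASP8 at 5.61 and TNFRSF10A at 5.71, a fitted value that depends on 1 control read, stand above the neighbours of these 2 clusters, which lie between -1.20 and 1.45; CASP10 and TNFRSF10D were not tested and are not drawn.

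Of 12 neighbours of FAS and FADD, 5 were higher and 3 lower by the test, and 4 did not pass. The same test called 29.6% of all genes higher and 29.7% lower. ACTA2 and ACTA2-AS1 rose beside FAS, while STAMBPL1 and LIPA fell. ACTA2-AS1 no longer passed when any 1 of control replicates 2 (adjusted p 0.0796) and 3 (0.128) and inactivated replicate 2 (0.131) was left out, nor LIPA without control replicate 1 (0.0508). IFIT3, an interferon-induced gene, fell from 1.09 ± 0.131 to 0.315 ± 0.119 CPM (log2 fold change -1.84 ± 0.30, adjusted p 3.5e-05), and its relative IFIT1 had 1.32 ± 0.225 and 1.01 ± 0.171 CPM (adjusted p 0.121). Of the tested genes nearest FADD in chromosome order, TPCN2, PPFIA1 and NADSYN1 rose, and IGHMBP2, LTO1 and DHCR7 did not pass. Most of them are far from it. Measured from the FADD start, PPFIA1 lay at 67.4 kb, LTO1 at -528 kb, TPCN2 at -1154 kb and NADSYN1 at 1250 kb. The calls of TPCN2, PPFIA1 and NADSYN1 were each lost in 1 of the alternative fits described below.

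Outside the 8 members, 85 genes of the wider pathway were grouped in 9 lists by role, not by how they moved. Of these, 56 had enough reads for the test, and 16 were called higher, 21 lower and 19 neither. Their median log2 fold change was -0.06, beside 0.0031 for all genes. These are 28.6% and 37.5% of the genes tested, beside 29.6% and 29.7% of all genes. A further 28 had counts but too few reads. BIRC6 has no counts in the table.

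No death ligand was expressed at a level that could be tested. TNFSF10, which encodes TRAIL, had 0, 0 and 1 read in control and 2, 2 and 4 reads in inactivated libraries, and FASLG had 0 in all 6. TNFSF15 had at most 4 reads in any library. TNF, LTA, LTB and TNFSF12 were listed at 0. The first 3 of these have further entries on alternate loci. How reads that match several entries were counted is unknown here, so such a 0 is not read as absence. TNFSF12 shares 36.8% of its exon bases with a readthrough gene.

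Other receptors of the tumour necrosis factor receptor family moved both ways, and 2 of the 4 tested rose and 2 fell (median log2 fold change -0.17). Over all genes 29.6% were called higher and 29.7% lower. TNFRSF1A, the main TNF receptor, fell from 57.7 ± 2.12 to 38.9 ± 2.27 CPM (log2 fold change -0.57 ± 0.05). TNFRSF12A, the receptor of TWEAK, fell from 7.53 ± 0.586 to 4.72 ± 0.430 CPM. TNFRSF21, which is expressed in neurons, rose from 66.7 ± 0.880 to 77.8 ± 0.965 CPM, and EDAR, the ectodysplasin receptor, from 0.927 ± 0.0606 to 2.14 ± 0.616 CPM. TNFRSF11B, a soluble decoy of TRAIL, was not tested and had 6, 11 and 6 reads in control and 0 in all inactivated libraries.

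Adaptors and ubiquitin enzymes of the receptor complexes also went both ways, with 5 of 13 called higher, 3 lower and 5 neither (median log2 fold change -0.07). For all genes the shares were 29.6% higher and 29.7% lower. TNFAIP3, a deubiquitinase induced by NF-kB, rose from 2.14 ± 0.325 to 6.05 ± 0.564 CPM (2.83-fold, 95% interval 2.34 to 3.43, adjusted p 1.1e-08), with no overlap between the groups. RIPK1, the kinase that binds CASP8 and FADD in the receptor complexes, rose from 24.1 ± 1.31 to 30.9 ± 1.06 CPM, and BIRC2, a ubiquitin ligase that marks RIPK1, from 38.1 ± 0.212 to 45.9 ± 1.61 CPM. TRAF3 fell from 80.8 ± 3.47 to 68.1 ± 2.87 CPM. RNF31 was listed at 0 and has an entry on an alternate locus.

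Of 6 other death effector domain proteins and binding partners, 3 were called lower, 0 higher and 3 neither (median log2 fold change -0.12). The shares over all genes were 29.7% lower and 29.6% higher. The changes were small. PEA15, which holds FADD through a death effector domain, fell from 96.1 ± 3.17 to 86.2 ± 3.44 CPM, DEDD from 50.6 ± 0.769 to 42.1 ± 1.55 CPM, and FAF1, which binds FAS, from 118 ± 4.55 to 106 ± 5.84 CPM. The FAF1 call was lost without control replicate 2 (adjusted p 0.0555).

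The necroptosis kinase RIPK3 was listed at 0, with an entry on an alternate locus, and its effector MLKL had 1 to 8 reads per library. ZBP1 had at most 1. None of the 3 could be tested.

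Tested genes of the lists downstream of CASP8 went both ways, beside 29.6% higher and 29.7% lower over all genes. Of 10 genes of the mitochondrial bridge and apoptosome, 4 were called lower, 2 higher and 4 neither (median log2 fold change -0.07). BID, the CASP8 substrate that carries the signal to mitochondria, fell from 18.5 ± 1.05 to 13.5 ± 1.66 CPM (log2 fold change -0.47 ± 0.08, adjusted p 6.4e-05). The pore-forming genes BAK1 and BAX fell too. BAK1 had 86.1 ± 2.28 and 70.6 ± 4.38 CPM, and BAX had 40.8 ± 3.43 and 34.1 ± 3.68 CPM, with overlap between the groups for BAX. HTRA2, a mitochondrial protease, fell from 25.9 ± 0.240 to 20.6 ± 1.84 CPM. Of 7 executioner caspase, nuclease and inhibitor genes, 2 were called lower, 1 higher and 4 neither (median log2 fold change 0.0041). BIRC5, which encodes survivin, rose from 159 ± 0.931 to 221 ± 13.3 CPM.

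CASP2 was the only gene of the remaining caspases that could be tested, and it fell from 72.7 ± 1.71 to 38.4 ± 1.80 CPM (log2 fold change -0.92 ± 0.05). CASP1, CASP5, CASP12 and CASP14 were listed at 0, of which CASP12 has an entry on an alternate locus, and CASP4, which has one too, had at most 5 reads. CASP2 was thus lower in inactivated cells, where CASP8 was higher.

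Of 15 known regulators of CASP8 or death receptor transcription, 6 were called higher, 6 lower and 3 neither (median log2 fold change -0.01). Calls over all genes were 29.6% higher and 29.7% lower. DNMT3B, a DNA methyltransferase, rose from 18.6 ± 0.607 to 37.2 ± 2.90 CPM (log2 fold change 1.00 ± 0.06). DDIT3, a stress-induced factor known to raise TNFRSF10B, fell from 11.3 ± 0.146 to 6.21 ± 0.894 CPM. ATF4, which acts upstream of DDIT3, fell from 507 ± 24.1 to 396 ± 29.0 CPM and IRF2, an antagonist of IRF1, from 8.20 ± 0.415 to 4.88 ± 0.598 CPM. IRF1, an interferon-induced factor that binds response elements of the second kind searched above, had 4.83 ± 0.431 and 5.14 ± 0.325 CPM (log2 fold change 0.09 ± 0.11, adjusted p 0.509). IRF9 was listed at 0 and has an entry on an alternate locus. The plot of the lists shows how the pathway genes spread to both sides of no change.

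**Figure D3:**
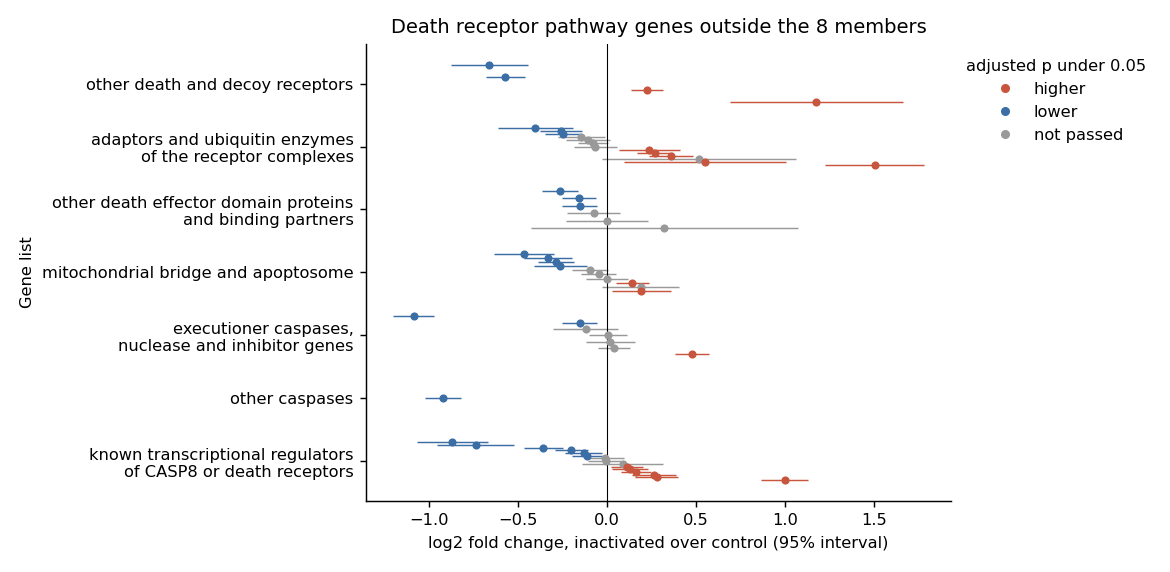
Log2 fold change (inactivated over control) with 95% intervals for the 56 tested pathway genes, by list, coloured by the edgeR call at an adjusted p under 0.05. The 16 higher and 21 lower genes lie on both sides of 0 within most lists; TNFAIP3, 2.83-fold higher, is at the upper end of the range.

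The tested protein-coding genes whose levels followed CASP8 most closely over the 6 libraries were FOXA3, FES, ARSL, TAC3 and MPZL2. Likeness was the root mean square difference in log2(CPM + 0.1) from CASP8, which was 0.447, 0.481, 0.494, 0.635 and 0.722. FOXA3 had 2, 2 and 1 read in control and 144, 169 and 134 reads in inactivated libraries, and FES 2, 2 and 1 against 163, 149 and 136. With 2 groups of 3 libraries, this measure finds genes of like level in each group and nothing finer.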

How the data were processed

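The deposited table gives read counts as whole numbers for each gene in each lane, with no normalization, and the summed exon length of each gene. Among tools, the submitters' processing notes list featureCounts 1.6.3, STAR 2.7.2b and DESeq2 1.36.0, and as build GRCh38.p14. Settings for strand and for reads with several alignments are not given in the sources used here. Lanes were summed to 6 libraries, and 26 genes without counts were left out. Of the remaining 49651 genes, 14704 passed filterByExpr (minimum count 10, minimum total count 15). They were scaled by TMM and fitted with edgeR 4.0.16 (quasi-likelihood F test, two-sided, Benjamini-Hochberg adjustment over all genes tested, threshold 0.05). "Rose" and "fell" are used of genes past this threshold. SEs come from the F statistic. Counting intervals of ratios are exact binomial (Clopper-Pearson, scipy 1.17.1), and they and the floor of 3 counts cover counting error only.

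The members and lists were chosen with earlier results of these data known. The named genes are the 8 members, ABL1 and ABL2, all tested ligands and receptors, up to 4 genes with the lowest p past the threshold per list, the tested neighbours, and the 5 genes most like CASP8. Other genes, such as untested list members and IRF1, were named after their values were seen. Some genes that the rule names are not reported here, but they stay in the counts of their lists. Of 84 pathway genes with counts, 9 that were not tested and 1 that was tested (DAXX) have entries on alternate loci, and none of the members has one. Library numbers differ between the groups, so no pairing was fitted. Alternatives were DESeq2 1.42.0, limma-voom (limma 3.58.1), other scalings, no filter, single lanes and leaving out each library.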

Additional observations from a re-analysis of the deposited data

How the results depend on the processing

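CASP8 kept its direction in all 13 alternatives, with log2 fold changes of 5.48 to 5.78. Leaving out 1 library gave 5.53 to 5.78, the highest without control replicate 3. TNFRSF10A ranged from 4.77 to 7.70 in the 12 alternatives that gave a value and was highest without control replicate 3, which holds its only control read. TNFRSF10B (0.25 to 0.32) and FAS (-0.72 to -0.49) kept their direction, while FADD (-0.05 to 0.01) and CFLAR (-0.0044 to 0.11) changed sign around 0. All counts of higher and lower genes, pathway genes and neighbours stayed within 1.5 times, also without genes that have an alternate-locus entry, a setting chosen after seeing the data. Of 55 named pathway genes and neighbours, 40 kept call and direction in every alternative. Only NIF3L1 and DHCR7, which did not pass, changed sign: NIF3L1 was 0.031 in lane 2 alone and -0.066 to 0.010 with 1 library left out, and DHCR7 -0.015 to 0.099. Depth limits CASP10, TNFRSF10D, the ligands and the control levels of CASP8 and TNFRSF10A.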
